A study of Homo sapiens with 12 samples.

Results

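Cyclins are the regulatory partners of the cyclin-dependent kinases (CDKs), and 9 genes of the phase cyclins were followed here through 2 cancer cell lines treated with a pair of small molecules that act on transcriptional co-activators. The genes were the D-type cyclins CCND1, CCND2 and CCND3, the E-type cyclins CCNE1 and CCNE2, the A-type cyclin CCNA2, the B-type cyclins CCNB1 and CCNB2, and CCNF, taken by symbol from a table of 34687 gene names. All 9 symbols were found, each with 1 value per column.

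HCT116, a human colon cancer line, and PANC1, a human pancreatic adenocarcinoma line, were exposed to ICG-001 or to C646, each at 10 uM, or to the solvent DMSO at 0.05% as the control, and RNA was taken at 12 h and at 96 h. ICG-001 binds the acetyltransferase CBP and blocks its contact with beta-catenin, and C646 competes with acetyl-CoA at the catalytic site of p300 and, by its likeness, CBP. The comparison asks how blocking a single contact of CBP differs from blocking acetylation. Each of the 12 combinations was a group with 1 column of values, averaged from 2 arrays, except PANC1 ICG-001 at 12 h with 3. Each cell line is a single established line, so its values describe that line and not the tumour type. By the study's methods, cultures for 12 h were denser at the start than cultures for 96 h, which were passaged during treatment and received fresh medium and drug daily, so time and culture history cannot be told apart.

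RNA was labelled with biotin and hybridised to Illumina HumanHT-12 v4 BeadChips, and the values are linear signal intensities after quantile normalization without background subtraction. Single arrays were not analysed here, which leaves no replicate spread and no test, and all differences are sizes between 2 columns. The detection limit, the signal that 99% of a normal background would not pass, lay between 142.7 and 144.7 in HCT116 columns and between 135.6 and 137.9 in PANC1 columns, and 43.6% to 46.3% and 44.3% to 47.3% of gene names were above it. A gene counted as tested if either of the columns set against each other exceeded the limit, and it was called higher or lower at a ratio of 1.5. Among genes at or under the limit in every column of a line, the SD of the log2 ratio was 0.062 to 0.073, which reflects the scatter of dim signals only and not the spread between cultures. Because background was left in, ratios of dim genes understate their changes, and signals were compared between columns of 1 line and never between genes. On a bulk array, fewer cells in a phase and less RNA per cell cannot be told apart.

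The labels of the lines were checked against marker genes. EPCAM, an epithelial adhesion protein, ranged from 6552.7 to 9562.3 in the HCT116 columns and from 508.7 to 873.1 in the PANC1 columns, whereas VIM, a mesenchymal filament protein, ranged from 257.2 to 335.1 and from 14637 to 18144. CDH2, N-cadherin, was under the limit in all 6 HCT116 columns and at 1548.2 to 2288.4 in PANC1. Of the 8 genes of the PANC1 list, 5 were above the limit in every HCT116 column, VIM among them. AXL ranged from 403.8 to 1307.1 in HCT116 and from 2151.4 to 2883.2 in PANC1. PDX1 ranged from 151.0 to 206.1 in HCT116 and from 255.8 to 336.1 in PANC1. ZEB1 was under the limit in all 6 HCT116 columns and above it in 5 of the 6 PANC1 columns. The ranges of KRT19, SOX9 and KRT7 overlapped between the lines. The ductal keratin KRT19 ranged from 7197.5 to 12026.8 in HCT116 and from 5006.3 to 11748.3 across PANC1, SOX9 overlapped between the lines, and KRT7 reached 388.8 in HCT116 against at most 185.2 for PANC1. Of 10 colon epithelial rows, 5 were under the limit in every HCT116 column and 5 in every PANC1 column. Detection of this list therefore did not separate the lines. CDX1 was under the limit in both lines, at 118.6 to 132.5 in HCT116. CDX2 was above it in every column, at 353.6 to 451.5 in HCT116 and 187.2 to 222.8 in PANC1. Of 10 markers of immune cells, endothelium and fibroblasts, 8 were under the limit in every HCT116 column and 7 in every PANC1 column, with PTPRC and PECAM1 under it in all 12.

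Cyclins set the order of the cell cycle because each class accumulates in its own window and directs its kinase to new substrates. D-type cyclins respond to growth signals and, with CDK4 or CDK6, begin the phosphorylation of the retinoblastoma protein; E-type cyclins with CDK2 complete it and start DNA replication; cyclin A2 carries S phase into G2; and the B-type cyclins with CDK1 drive mitosis. CCNF is the exception in this family, since its product is the F-box subunit of a ubiquitin ligase and has no known kinase partner, although its RNA also peaks late in the cycle.

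The calls are given here in phase order, and they did not separate whole classes. CCND3 was not called with ICG-001. CCNE1 and CCNE2 were below 0 at 12 h of ICG-001 in both lines, with log2 ratios from -0.47 to -0.34. In HCT116 at 12 h of ICG-001, 1 of 8 tested cyclins was called higher, CCND1, and 0 were called lower, beside 4.81% and 4.15% of the 17078 genes tested. In HCT116 at 96 h of ICG-001, 2 of 8 were higher, CCND1 and CCNE2, beside 5.16% of 17028 genes, and 3 of 8 were lower, CCNA2, CCNB2 and CCNF, beside 5.13%. In PANC1 at 12 h of ICG-001, 0 of 9 were called in either direction, beside 2.23% higher and 0.344% lower of 16882 genes. In PANC1 at 96 h of ICG-001, 1 of 9 was higher, CCND2, beside 3.85% of 17324 genes, and 3 of 9 were lower, CCNA2, CCNB1 and CCNF, beside 3.56%. With ICG-001 the late cyclins therefore made up every lower call against DMSO, and the higher calls came from D- and E-type cyclins.

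C646 gave fewer calls, and CCND3 was the member behind them. In HCT116 at 12 h, 1 of 8 cyclins was higher with C646 and 0 were lower, beside 2.68% and 1.58% of 16461 genes, and in PANC1 at 12 h the counts were again 1 and 0 of 8, beside 4.02% and 2.71% of 17400 genes. At 96 h of C646, 0 of 8 cyclins were called in HCT116, beside 1.9% higher and 1.23% lower of 16798 genes, and 0 of 8 in PANC1, beside 2.79% and 1.18% of 17228 genes. With 8 or 9 members, a count of 0 or 1 lies close to these shares and is not read as a result about the cyclins, whereas the counts of 3 lower cyclins with ICG-001 at 96 h lie above theirs.

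**Figure D1:**
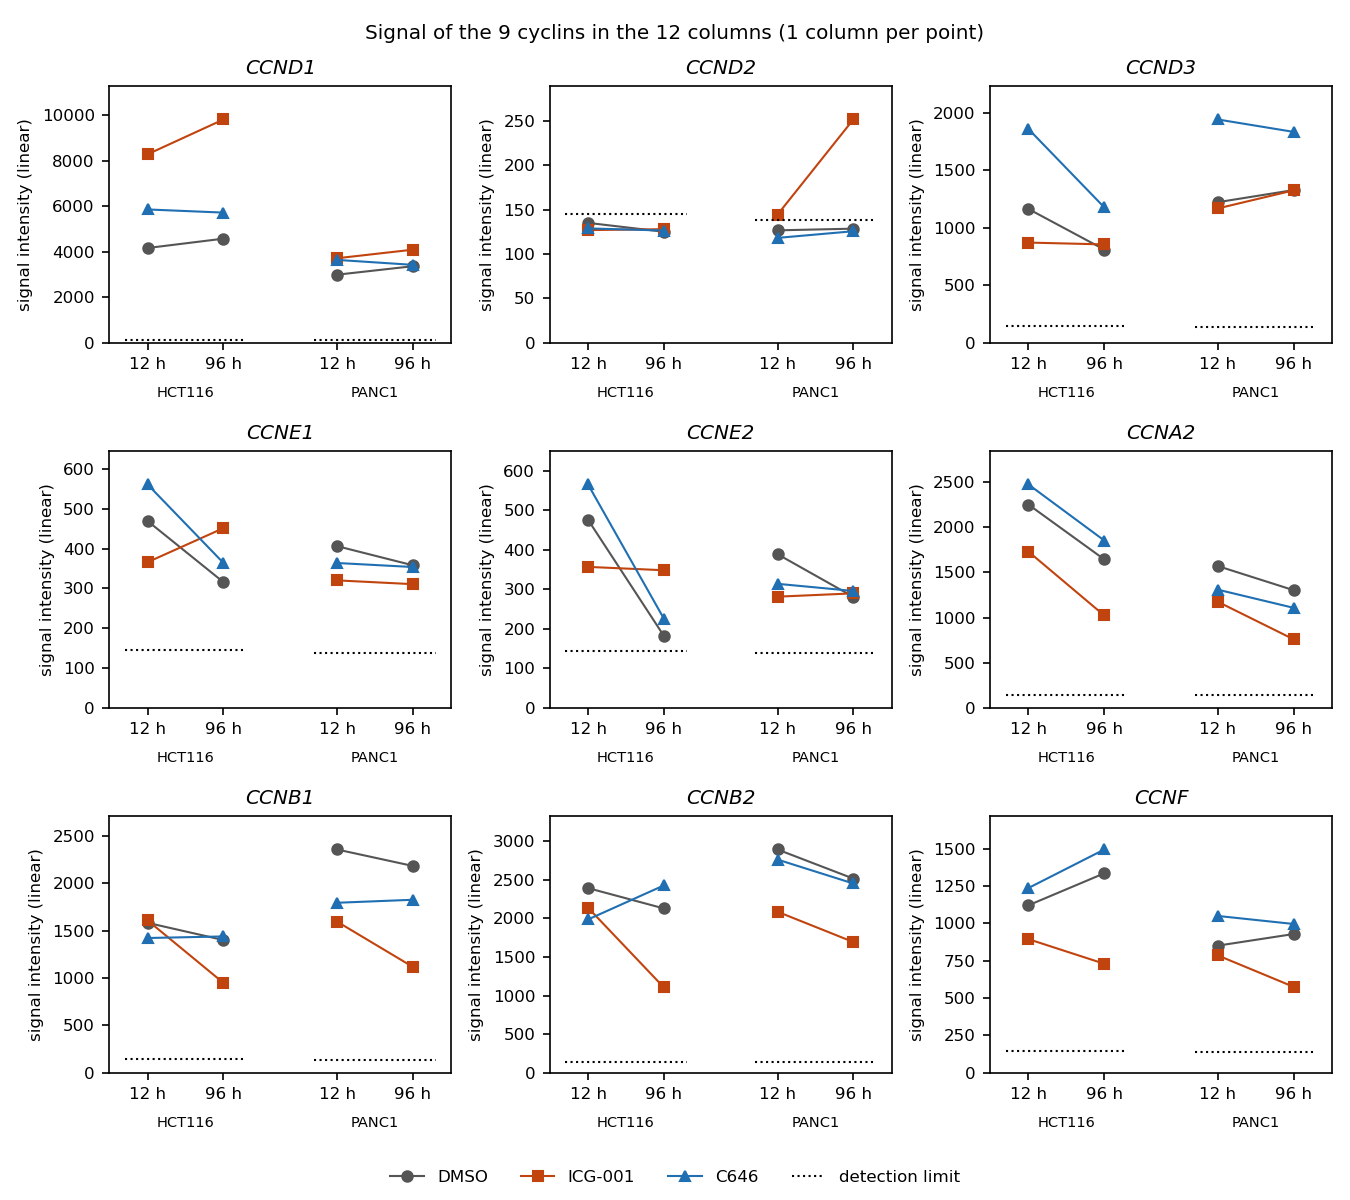
Linear signal intensity of each of the 9 cyclins (vertical axis, from 0, its own scale per gene) at 12 and 96 h in HCT116 and PANC1, with DMSO as grey circles, ICG-001 as red squares, C646 as blue triangles and the detection limit dotted; each point is 1 column and there are no error bars. CCND1 is highest in both ICG-001 columns of each line, CCND3 in both C646 columns, and CCNA2, CCNB1, CCNB2 and CCNF are lowest in the ICG-001 column at 96 h in both lines.

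CCND1, cyclin D1, the growth-factor-responsive partner of CDK4 and CDK6 and a much studied target of beta-catenin, was higher with ICG-001 in HCT116. Its signal in HCT116 was 4163.7 in DMSO and 8281.6 in ICG-001 at 12 h, and 4574.0 in DMSO and 9808.0 in ICG-001 at 96 h. The ratios were 1.99-fold and 2.14-fold (log2 ratios of 0.99 and 1.10), and 1.0% and 0.9% of genes tested had a higher ratio. CCND1 was chosen with this rise known, so these shares describe its size and are not independent support. C646 gave 5856.8 at 12 h and 5718.5 at 96 h, which is 1.41-fold and 1.25-fold over DMSO and short of the 1.5-fold line. Both drugs thus left CCND1 above both DMSO columns of HCT116, with ICG-001 above C646 at each time.

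In PANC1 the order of treatments was alike but the steps were small. CCND1 was at 2991.1 and 3363.7 in DMSO at 12 and 96 h, 3713.4 and 4090.3 in ICG-001, and 3641.1 and 3423.9 in C646. ICG-001 was 1.24-fold and 1.22-fold over DMSO, and neither ratio was called. The ICG-001 columns were again the highest of the 6, yet at 12 h ICG-001 and C646 were within 0.03 of each other on the log2 scale. The difference between the lines in the size of the CCND1 ratio was not tested, since no replicates were used here. No promoter window was given for CCND1 in the reference table used.

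CCND2, cyclin D2, another CDK4 and CDK6 partner, was detected in 1 line with 1 drug. All 6 HCT116 columns were under the limit, between 125.0 and 135.0. In PANC1, DMSO gave 126.6 and 128.5 and C646 gave 118.1 and 125.6 at 12 and 96 h, all under the limit, while ICG-001 gave 144.3 at 12 h, just over the limit of 136.2, and 251.4 at 96 h. The 96 h signal was at least 1.82-fold over DMSO and at least 1.85-fold over C646, with the dark columns set to their limits. At 12 h those bounds were 1.05-fold and 1.06-fold, too small to read as a difference. Because the gene is dim in every column, its log2 ratio of 0.97 at 96 h is pulled toward 0 by the background left in the signal.

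CCND3, cyclin D3, the D-type cyclin best known from lymphoid and muscle cells, was the member that moved with C646. HCT116 had 1162.2 in DMSO and 1856.6 in C646 at 12 h, and 809.8 and 1176.4 at 96 h. PANC1 had 1221.6 and 1939.7 at 12 h, and 1326.8 and 1831.9 at 96 h. The ratios at 12 h were 1.60-fold in HCT116 and 1.59-fold in PANC1, both called, and those at 96 h were 1.45-fold and 1.38-fold, both short of the line. The C646 columns held the highest and the second highest CCND3 signal of each line, but in HCT116 the C646 column at 96 h exceeded the DMSO column at 12 h by only 0.02 on the log2 scale.

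ICG-001 did not share this pattern. CCND3 was at 870.6 and 854.6 in ICG-001 at 12 and 96 h in HCT116, and at 1167.5 and 1324.3 in PANC1, with log2 ratios over DMSO between -0.42 and 0.08. CCND1 and CCND3, which serve the same kinases, thus had their highest signals under different drugs in both lines. The 12 h call in PANC1 is near the threshold, with a log2 ratio of 0.67, and the C646 column at 12 h over the DMSO column of 96 h gave 0.55, below it. In HCT116 the same exchange of control raised the 12 h ratio from 0.68 to 1.2.

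The E-type cyclins CCNE1 and CCNE2, the CDK2 partners of the G1/S transition, differed between the DMSO columns of HCT116. CCNE2 in HCT116 was at 476.4 in DMSO at 12 h and at 182.4 in DMSO at 96 h, 2.61-fold lower and the only cyclin called between the control columns, 1 of 8 beside 3.21% of 16191 genes called in either direction. CCNE1 was at 469.6 and 316.0, a log2 ratio of -0.57, just short of the call. In PANC1, CCNE2 was at 389.3 and 281.2 and CCNE1 at 406.5 and 358.3, and 0 of 8 cyclins were called, beside 1.32% of 16485 genes.

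In ICG-001 this fall with time was not seen in HCT116. CCNE2 was at 357.1 at 12 h and 348.6 at 96 h with ICG-001, a log2 change of -0.04, against -1.38 in DMSO and -1.32 in C646, where it went from 565.9 to 226.1. CCNE1 was at 366.2 and 451.7 with ICG-001, a log2 change of 0.30, against -0.57 in DMSO and -0.62 in C646. HCT116 in DMSO and in C646 therefore moved alike over time and HCT116 in ICG-001 did not, a difference that was not tested. In PANC1 the CCNE2 changes over time were -0.47 in DMSO, 0.04 in ICG-001 and -0.09 in C646.

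As a consequence the sign of the E-type ratios depended on the control column. CCNE2 in HCT116 was called higher at 96 h of ICG-001 with a log2 ratio of 0.93 over the DMSO column of 96 h, but the same ICG-001 column over the DMSO column of 12 h gave -0.45. At 12 h of ICG-001 the ratio was -0.42 over the matched control and 0.97 over the other. CCNE1 moved the same way, from 0.52 to -0.06 at 96 h and from -0.36 to 0.21 at 12 h. The matched control is the design of the study, and the ratio of CCNE2 is given with that dependence.

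**Figure D2:**
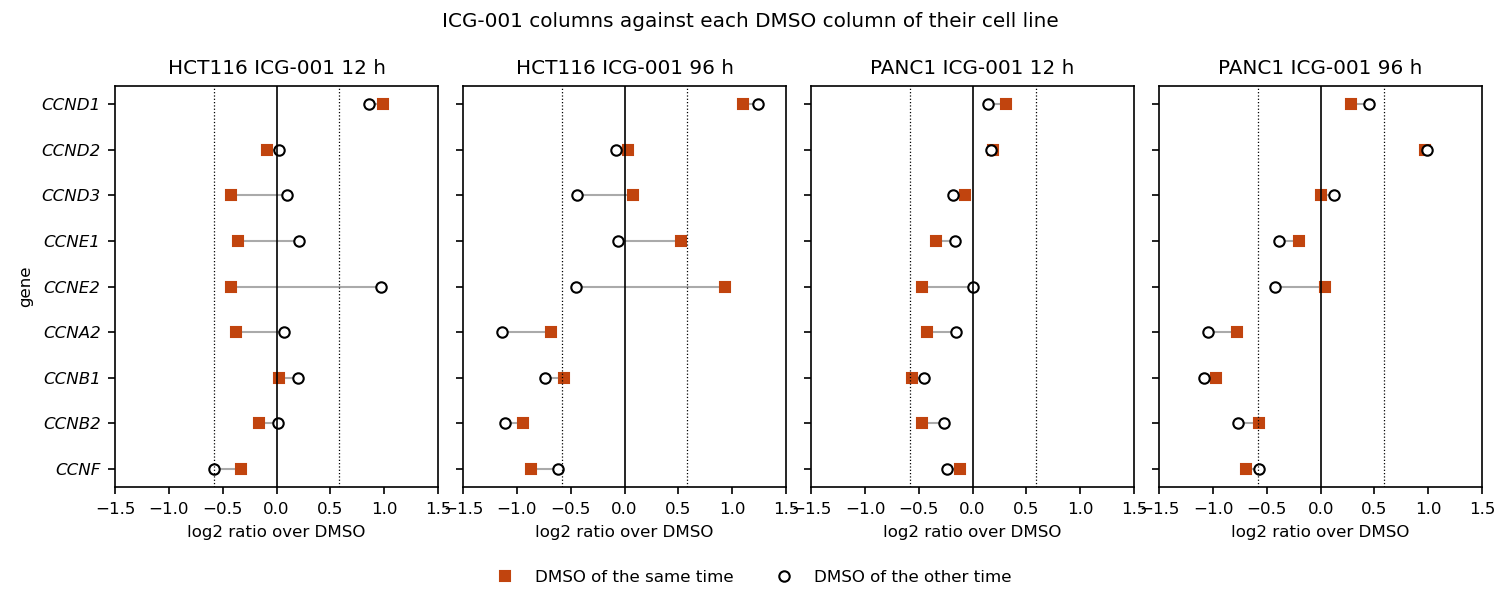
Log2 ratio of each ICG-001 column over the DMSO column of the same time (filled squares) and over the DMSO column of the other time in the same line (open circles), 1 panel per ICG-001 column, with dotted lines at a 1.5-fold ratio; CCND2 in HCT116 is plotted although it was under the detection limit in all 6 columns. The 4 late cyclins lie left of 0 at 96 h with either control, CCND1 lies right of 0 in every panel, and CCNE2 in HCT116 changes side.

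The late cyclins were lower together with ICG-001 at 96 h. CCNA2 encodes cyclin A2, which pairs with CDK2 and then CDK1 in S phase and G2; CCNB1 encodes cyclin B1, the main CDK1 partner at entry into mitosis; CCNB2 encodes cyclin B2, found at the Golgi; and CCNF encodes the ubiquitin ligase subunit described above. In all 8 pairs of these 4 genes with the 2 lines, the ICG-001 column at 96 h was the lowest of the 6 columns. The share of all genes with this column lowest was not computed. The 4 genes varied together, so the 8 pairs are not separate observations. The 8 log2 ratios over DMSO at 96 h ran from -0.97 to -0.56 with a median of -0.74, and 6 of them were called lower.

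In HCT116, CCNA2 was at 1644.9 in DMSO and 1023.3 in ICG-001 at 96 h, 1.61-fold lower, with C646 at 1854.5. CCNB2 was at 2129.8 in DMSO, 1106.5 in ICG-001 and 2427.9 in C646, and CCNF at 1336.0, 730.2 and 1495.4, so that ICG-001 was 1.92-fold and 1.83-fold lower than DMSO. CCNB1 was at 1400.9, 949.1 and 1439.2, and its 1.48-fold difference was just short of the call. In each of these genes the C646 column lay above the DMSO column and the ICG-001 column below both.

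In PANC1 the lowest ratio belonged to CCNB1, with 2183.1 in DMSO, 1117.6 in ICG-001 and 1826.1 in C646 at 96 h, 1.95-fold lower with ICG-001. CCNA2 was at 1303.4, 758.6 and 1107.8, 1.72-fold lower, and CCNF at 929.4, 575.4 and 996.5, 1.62-fold lower. CCNB2 was at 2516.7, 1694.7 and 2453.1, and its 1.49-fold difference missed the call. Thus CCNB1 missed the threshold in HCT116 and CCNB2 missed it in PANC1, each by little.

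At 12 h the late cyclins were closer to their controls, and 0 of the 8 ratios of ICG-001 over DMSO were called. CCNA2 in HCT116 was at 2252.5 in DMSO, 1730.9 in ICG-001 and 2475.5 in C646, and CCNB1 at 1582.8, 1607.7 and 1422.6. CCNB2 was at 2393.4, 2138.9 and 1987.3, and CCNF at 1121.9, 894.8 and 1237.7. ICG-001 was the lowest of the 3 treatments for CCNA2 and CCNF in this line, and C646 for CCNB1 and CCNB2. In PANC1 the DMSO, ICG-001 and C646 signals at 12 h were 1570.8, 1174.7 and 1309.2 for CCNA2, and 2356.8, 1595.4 and 1794.6 for CCNB1. CCNB2 was at 2893.6, 2087.3 and 2763.0, and CCNF at 851.7, 785.7 and 1050.3. Here ICG-001 was the lowest treatment for each of the 4 genes, and the 8 log2 ratios of both lines ran from -0.56 to 0.02 with 7 below 0. Over the DMSO column of 96 h, the HCT116 ratios at 12 h were 0.07 for CCNA2, 0.20 for CCNB1, 0.01 for CCNB2 and -0.58 for CCNF. Those of PANC1 were -0.15, -0.45, -0.27 and -0.24. In HCT116 the direction at 12 h thus depended on the control for CCNA2 and CCNB2.

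The 16 ratios of C646 over DMSO for these 4 genes lay between -0.39 and 0.30, with 8 below 0, a median of 0.00 and 0 called. The pooled median hides a difference between the lines, which was not tested. In HCT116, 2 of 4 ratios were below 0 at 12 h and 0 of 4 at 96 h, where the median was 0.16. In PANC1, 3 of 4 were below 0 at each time, with medians of -0.16 and -0.14. The DMSO columns of 96 h over 12 h gave -0.45 to 0.25 for the same genes, so the ICG-001 ratios at 96 h lay beyond the distance between controls in all 8 pairs. Within the ICG-001 columns the step from 12 to 96 h was -0.76 for CCNA2, -0.76 for CCNB1, -0.95 for CCNB2 and -0.29 for CCNF in HCT116, and -0.63, -0.51, -0.30 and -0.45 in PANC1. In the DMSO columns of HCT116 the corresponding steps were -0.45, -0.18, -0.17 and 0.25, and those of PANC1 were -0.27, -0.11, -0.20 and 0.13. In each of the 8 pairs the step was thus lower in ICG-001 than in DMSO. This restates that the ratio over DMSO was lower at 96 h than at 12 h, from the same columns. Against the DMSO column of the other time, the ICG-001 ratios at 96 h were -1.14 for CCNA2, -0.74 for CCNB1, -1.11 for CCNB2 and -0.62 for CCNF in HCT116, and -1.05, -1.08, -0.77 and -0.57 in PANC1. Every one stayed below 0, which the matched ratios and the distance between controls already imply.

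Because these 4 genes moved together, their promoter windows are shown. In late cell cycle genes, the DREAM complex and the MuvB core that it shares with B-MYB and FOXM1 are known to bind a short element near the start called the CHR (cell cycle genes homology region), and NF-Y binds CCAAT boxes upstream of it. The windows are the 250 bases before the RefSeq gene start, 5′ to 3′ on the strand of the gene, from build GRCh38.p14. They were CCNA2 at chr4:121823884-121824133 on the minus strand, CCNB1 at chr5:69166900-69167149, CCNB2 at chr15:59104896-59105145 and CCNF at chr16:2429197-2429446, all on the plus strand, and CCNE1 at chr19:29811741-29811990 on the plus strand, shown as an earlier cyclin for contrast. Capitals mark matches to the CHR words TTTGAA or TTCGAA or TTTAAA or CTTGAA and to the CCAAT box, each on either strand.
CCNA2: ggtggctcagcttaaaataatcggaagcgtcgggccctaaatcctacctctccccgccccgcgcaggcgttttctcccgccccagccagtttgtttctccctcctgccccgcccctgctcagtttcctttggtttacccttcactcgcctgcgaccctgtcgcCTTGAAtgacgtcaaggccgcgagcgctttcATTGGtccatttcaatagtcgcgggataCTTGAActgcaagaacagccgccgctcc
CCNB1: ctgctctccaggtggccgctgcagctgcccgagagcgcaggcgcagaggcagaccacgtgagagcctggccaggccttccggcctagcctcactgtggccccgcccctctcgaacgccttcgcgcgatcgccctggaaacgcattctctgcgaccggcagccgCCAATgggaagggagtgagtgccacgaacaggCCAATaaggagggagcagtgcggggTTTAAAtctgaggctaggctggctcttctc
CCNB2: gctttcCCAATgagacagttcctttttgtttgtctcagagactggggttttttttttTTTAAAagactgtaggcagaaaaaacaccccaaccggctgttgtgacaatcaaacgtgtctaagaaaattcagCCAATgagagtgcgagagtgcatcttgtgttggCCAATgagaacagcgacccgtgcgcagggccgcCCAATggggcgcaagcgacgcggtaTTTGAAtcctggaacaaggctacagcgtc
CCNF: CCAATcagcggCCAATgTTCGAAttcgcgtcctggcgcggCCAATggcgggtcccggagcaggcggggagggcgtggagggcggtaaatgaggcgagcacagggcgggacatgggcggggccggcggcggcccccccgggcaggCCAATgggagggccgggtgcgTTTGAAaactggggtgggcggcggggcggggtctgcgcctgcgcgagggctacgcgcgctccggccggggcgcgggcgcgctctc
CCNE1: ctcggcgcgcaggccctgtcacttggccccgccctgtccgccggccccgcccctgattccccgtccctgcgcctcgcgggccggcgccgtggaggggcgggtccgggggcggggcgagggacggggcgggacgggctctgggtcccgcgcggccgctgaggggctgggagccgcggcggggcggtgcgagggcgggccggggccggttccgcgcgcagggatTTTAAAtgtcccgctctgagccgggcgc

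Each of the 4 late cyclins held a CHR word and at least 1 CCAAT box in its window, and CCNE1 held a CHR word and no CCAAT box. With positions counted back from the base before the start, which is -1, CHR words began at -87 and -28 in CCNA2, -30 in CCNB1, -193 and -29 in CCNB2, -233 and -85 in CCNF and -28 in CCNE1. The nearest CHR word of CCNA2, CCNB1, CCNB2 and CCNE1 thus began between -30 and -28, while that of CCNF lay farther upstream. CCAAT boxes began at -56 in CCNA2 (as ATTGG, the opposite strand), -87 and -55 in CCNB1, -244, -120, -87 and -54 in CCNB2, and -250, -239, -210 and -106 in CCNF. Neighbouring boxes were 32 bases apart in CCNB1, 33 and 33 bases apart among the last 3 of CCNB2, and 11, 29 and 104 bases apart in CCNF.

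A CHR word was present in 29.1% and a CCAAT box in 32.0% of the 35116 windows of this length in the table, so single matches are common. A CHR word together with at least 2 CCAAT boxes was present in 2.81% of windows, and CCNB1, CCNB2 and CCNF were among them. CCNA2, with 1 CCAAT box, was not. All the late cyclins shared only the wider combination, a CHR word with at least 1 CCAAT box. The share of windows with that combination was not computed, so how common it is cannot be read from the 2.81%. The cAMP response element TGACGTC, present in 3.1% of windows, was matched in CCNA2 at -81, overlapping a match on the opposite strand at -80. An E2F word (TTCCCGC or TTCGCGC or TTGCCGC or TTGGCGC), present in 10.9%, was matched in CCNB1 at -132. The table held 3 windows for CCND3, of which 1 had no match and the others had a CCAAT box at -136 and at -64, and held none for CCND1, CCND2 and CCNE2. The TCF/LEF words CTTTGAT or CTTTGTT or CTTTGAA, the last of which contains a CHR word, are in 10.0% of windows and the AP-1 word TGANTCA in 6.6%, and neither occurred in the 8 windows of the cyclins. A match describes letters and not binding, and nothing is drawn from a missing one.

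**Figure D3:**
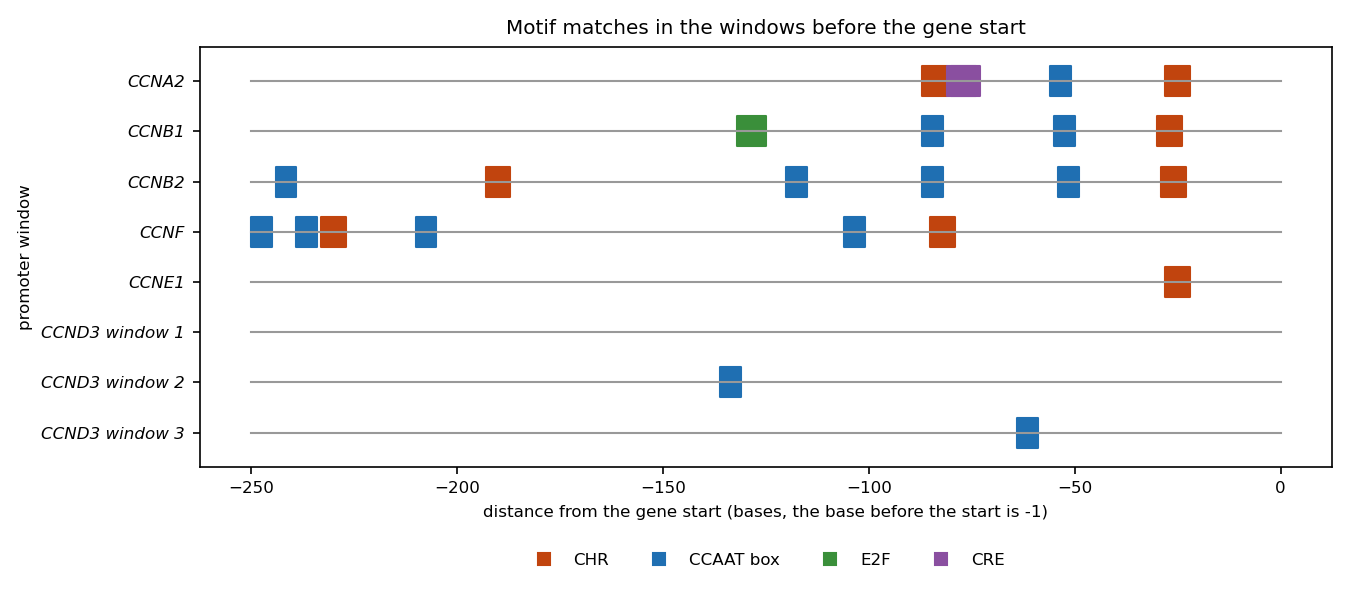
Matches to 4 motifs in the 250 bases before the RefSeq gene start of 6 cyclins, with the distance from the start in bases on the horizontal axis and 1 line per window; CHR words in red, CCAAT boxes in blue, E2F in green and the cAMP response element in purple. The late cyclins carry CHR words and CCAAT boxes, CCNE1 a CHR word alone, and CCND3 no CHR word in its 3 windows.

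The drugs were given at the same dose and for the same times, so ICG-001 can be set directly against C646 without a DMSO column. The resulting ratios share their drug columns with the comparisons above and are not independent of them. In HCT116 at 12 h, 0 of 8 cyclins were higher with ICG-001 than with C646 and 3 of 8 were lower, CCND3, CCNE1 and CCNE2, beside 3.43% and 2.81% of 17156 genes. In HCT116 at 96 h, 2 of 8 were higher, CCND1 and CCNE2, and 4 of 8 were lower, CCNA2, CCNB1, CCNB2 and CCNF, beside 3.18% and 3.23% of 17373 genes. In PANC1 at 12 h, 0 of 9 were higher and 1 of 9 was lower, CCND3, beside 1.59% and 0.941% of 17432 genes. In PANC1 at 96 h, 1 of 9 was higher, CCND2, and 2 of 9 were lower, CCNB1 and CCNF, beside 3.3% and 3.45% of 17785 genes.

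CCND3 gave the widest early difference between the drugs, being 2.13-fold lower with ICG-001 in HCT116 and 1.66-fold lower in PANC1 at 12 h, and 1.38-fold lower in each line at 96 h. CCND1 was 1.72-fold higher with ICG-001 than with C646 in HCT116 at 96 h, where its log2 ratio was 0.78, and at 0.50, 0.03 and 0.26 in HCT116 at 12 h and PANC1 at 12 and 96 h. For the late cyclins at 96 h, all 8 ratios were below 0, between -1.13 for CCNB2 in HCT116 and -0.53 for CCNB2 in PANC1, with a median of -0.75. At 12 h they ran from -0.52 to 0.18. No interval can be given for these differences, and ratios close to 0, such as that of CCND1 in PANC1 at 12 h, do not show that the compounds act alike.

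**Figure D4:**
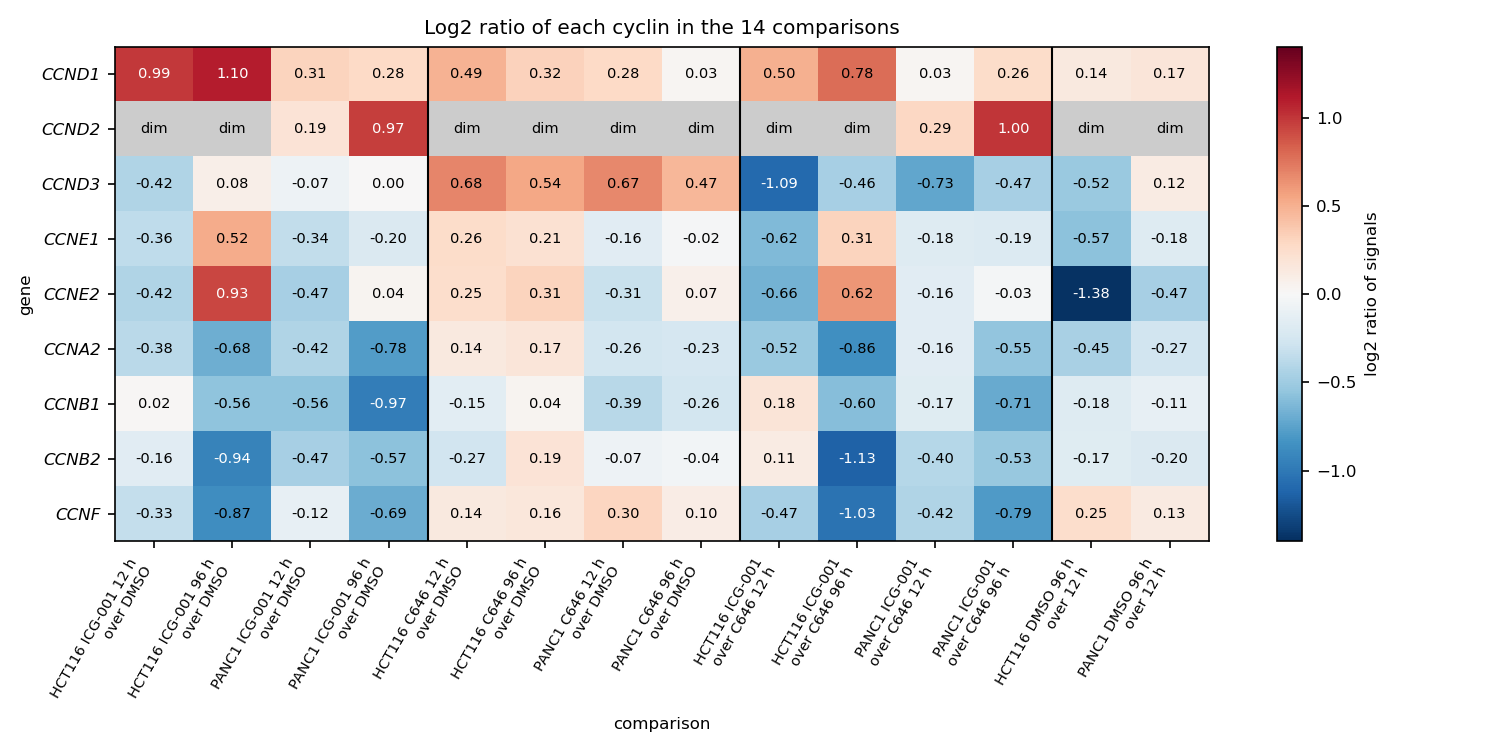
Log2 ratio of each cyclin in the 14 comparisons, with red for higher and blue for lower in the first-named column, and grey cells marked dim where the gene was under the detection limit in both columns. Reading down the ICG-001 columns at 96 h, values go from positive at CCND1 to between -0.97 and -0.56 at the 4 late cyclins in both lines, whereas the C646 columns have their highest values at CCND3 and run from -0.39 to 0.30 at the late cyclins.

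Some values lay next to the 1.5-fold line. Just outside it, among comparisons with DMSO, were CCNB2 at 96 h of ICG-001 in PANC1 (-0.57), CCNB1 at 96 h in HCT116 (-0.56) and at 12 h in PANC1 (-0.56), CCND3 at 96 h of C646 in HCT116 (0.54) and CCNE1 at 96 h of ICG-001 in HCT116 (0.52). CCND1 at 12 h of C646 in HCT116 (0.49) also lay just outside. Just inside were CCND3 at 12 h of C646 in both lines (0.68 and 0.67) and CCNA2 at 96 h of ICG-001 in HCT116 (-0.68). For ICG-001 over C646 in HCT116, values just inside were those of CCNB1 (-0.60) and CCNE2 (0.62) at 96 h and of CCNE1 (-0.62) and CCNE2 (-0.66) at 12 h, and just outside in PANC1 at 96 h was CCNA2 (-0.55). Also just outside over C646 were CCNB2 in PANC1 at 96 h (-0.53) and, in HCT116 at 12 h, CCNA2 (-0.52) and CCND1 (0.50). Counts of called cyclins therefore rest on a line with members close to it on both sides.

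The signals of the cyclins were also set against each other across the 12 columns, with each gene centred within its line. Pearson's r over the 12 columns was 0.85 for CCNA2 with CCNB1 and with CCNB2, 0.88 for CCNB1 with CCNB2, 0.80 for CCNB2 with CCNF, 0.69 for CCNA2 with CCNF, 0.64 for CCNB1 with CCNF, and 0.89 for CCNE1 with CCNE2. The lines differed for CCNE1, whose r over the 6 columns of PANC1 was 0.86 with CCNA2, 0.88 with CCNB1 and 0.93 with CCNB2, above its 0.81 with CCNE2, while the HCT116 values were 0.31, -0.17, -0.26 and 0.91. CCND1 had r of -0.68 with CCNA2, -0.57 with CCNB1, -0.73 with CCNB2 and -0.68 with CCNF, and r of -0.21 with CCND3. CCND3 had r of 0.60 with CCNE1, with 0.75 in HCT116 and 0.16 in PANC1. CCND1 had r of -0.04 with CCNE1, with 0.08 in HCT116 and -0.92 in PANC1. The 6 columns of a line share their normalization and their time points, so these values describe the 12 columns and carry no p.

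Among 4971 genes above the limit in all 12 columns and with an SD of the centred values of at least 0.2, the patterns most like that of CCND1 were those of FTH1 (r of 0.950), the ferritin heavy chain, SQSTM1 (0.944), the autophagy adaptor p62, and LOC339970 (0.933). Those most like CCNE2 were MCM10 (0.958), a replication factor, PSMC3IP (0.952), a meiotic recombination factor, and ZWINT (0.948), a kinetochore protein. For CCNA2 they were RPL29 (0.972), a ribosomal protein, ATAD2 (0.967), a bromodomain ATPase, and LOC399804 (0.966), and for CCNB1 they were LOC729686 (0.935), GDI2 (0.929), a Rab regulator, and RBM34 (0.925).

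The kinases that the cyclins activate are given next. The table lists CDK1 under its older symbol CDC2, which at 96 h gave 1480.3 in DMSO and 1125.3 in ICG-001 in HCT116, with 1571.2 and 1519.1 as the PANC1 signals, log2 ratios of -0.40 and -0.05. CDK2 had log2 ratios of -0.04 and -0.18 at 96 h and was called lower at 12 h in HCT116, at 791.5 against 1319.3 in DMSO (-0.74). CDK4 gave 0.25 and -0.22 at 96 h, and CDK6 -0.29 and 0.36. The HCT116 DMSO column of 96 h had CDK2 at 871.1, so the CDK2 call at 12 h depends on the control column. Between the DMSO columns of HCT116, 2 of 4 kinases were called lower at 96 h, CDK2 (-0.60) and CDK4 (-0.64). The share of genes called in either direction was 3.21%. In PANC1 0 of 4 were called, beside 1.32%. With ICG-001 over DMSO at 96 h, 0 of the 4 kinases were called in either line, beside 5.16% higher and 5.13% lower of all genes tested in HCT116 and 3.85% and 3.56% for PANC1, so that a count of 0 among 4 is near the background. These shares apply to every list at 96 h of ICG-001. The kinases had median log2 ratios of -0.17 in HCT116 and -0.11 in PANC1 beside 0.011 and 0.002 for all genes tested.

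Regulators of the cyclin-CDK complexes were mixed. CDKN1A, the CDK inhibitor p21, was called higher with ICG-001 in HCT116, with log2 ratios of 1.06 at 12 h and 1.12 at 96 h, and had 0.24 and 0.12 in PANC1. CDKN1C, the inhibitor p57, was called lower in HCT116, at -0.77 and -0.71, with 0.19 and 0.23 in PANC1. At 96 h of ICG-001, 1 of 7 tested inhibitors was higher and 1 lower in HCT116, and 0 of 6 were called in PANC1, beside the same shares of all genes. CDKN1A was also called higher with C646, at 1.37 in HCT116 at 96 h and 0.87 in PANC1 at 12 h, so its higher signal was not limited to ICG-001. Among the kinase activators and WEE1 family, PKMYT1, which phosphorylates and holds back CDK1, and MNAT1, a subunit of the CDK-activating kinase, were called lower in PANC1 at 96 h (-0.77 and -0.69), and had -0.29 and -0.31 in HCT116. That was 2 of 8 lower and 0 higher in PANC1, beside 3.56% and 3.85% of all genes, and 0 of 8 called in HCT116.

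The transcription factors that act on cyclin genes gave counts close to the shares of all genes at 96 h of ICG-001. Of the pocket proteins and E2F factors, 1 of 12 tested was higher in HCT116 (E2F7, a repressor, named after its value was seen) and 0 of 13 were called in PANC1. E2F4, the E2F of the DREAM complex, had log2 ratios of 0.35 and 0.25 at 96 h, and E2F6, another repressor, 0.44 and 0.39. At 12 h of ICG-001 in HCT116, E2F4 was called higher and RBL2, named after its value was seen, lower. That was 1 of 13 in each direction, beside 4.81% higher and 4.15% lower of all genes. In PANC1 at 12 h 0 of 13 were called, beside 2.23% and 0.344%. Of the G2/M factors at 96 h, 0 of 8 were called in HCT116 and 0 of 9 in PANC1, with medians of 0.06 and -0.24. FOXM1, an activator of late cyclins, had -0.23 and -0.29 at 96 h and -0.46 and -0.42 at 12 h, and LIN54, the MuvB subunit that contacts the CHR, had -0.08 and -0.54 at 96 h and -0.66 and -0.19 at 12 h, the first of these called lower. FOXM1 was called lower with C646 in PANC1 at 12 h (-0.79).

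Of the ubiquitin ligases and brakes that act on cyclins, 2 of 14 were higher and 2 of 14 lower in HCT116 at 96 h of ICG-001, beside 5.16% and 5.13% of all genes, and 0 and 1 of 14 in PANC1, beside 3.85% and 3.56%. SKP2, the F-box protein that leads cyclin E and p27 to destruction, was called lower in HCT116 at 12 h and 96 h (-0.96 and -0.60), with -0.47 and -0.40 in PANC1. CKS1B, its cofactor, was called higher in HCT116 at 96 h (0.82), with 0.35 in PANC1. The other calls, named after their values were seen, were CDC16 higher and CKS2 lower in HCT116 and SKP1 lower in PANC1.

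Cyclins outside the phase series were called in both directions at 96 h of ICG-001. Of 14 tested, 2 were higher and 3 lower in HCT116, beside 5.16% and 5.13% of all genes, and 2 higher and 1 lower in PANC1, beside 3.85% and 3.56%, with medians of -0.14 and -0.04. Their difference from the late cyclins was not tested. CCNY, a membrane-associated cyclin, had log2 ratios of 1.00 and 0.66, and CCNI, an atypical cyclin, 0.64 and 0.68, so the same pair was called higher in both lines. The lower calls, named after their values were seen, were CCNC, CCNG1 and CCNG2 in HCT116 and CCNK in PANC1. The list also holds CCNB1IP1, which is a ubiquitin ligase and not a cyclin.

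**Figure D5:**
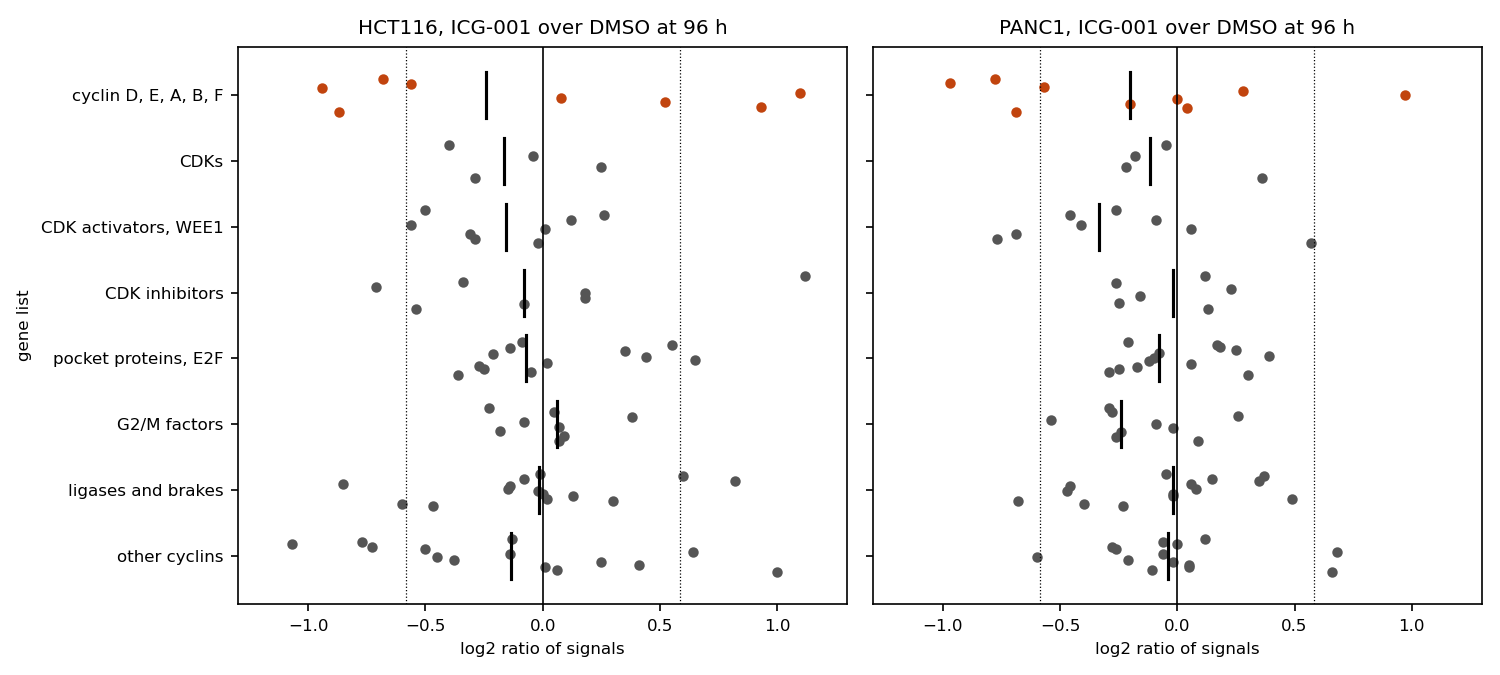
Log2 ratio of ICG-001 over DMSO at 96 h for each tested gene (points, spread vertically only to separate them) of the 9 cyclins and 7 other cell cycle lists in HCT116 and PANC1, with the median of each list as a black bar and dotted lines at a 1.5-fold ratio. The phase cyclins reach both sides of the dotted lines, with the late cyclins at -0.97 to -0.56, while 0 of 4 CDKs and 0 G2/M factors, counts near the share of all genes, pass them in either line.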

How the data were processed

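RNA from HCT116 and PANC1 cells was measured on Illumina HumanHT-12 v4 BeadChips. The deposited values are signal intensities on a linear scale, which the authors exported from GenomeStudio (version not given in the sources used here), quantile-normalized and with the background left in. Each column averages 2 arrays, or 3 for PANC1 ICG-001 at 12 h. There is 1 value per gene name, and how probes of a gene were combined is not given in the sources used here. Quantile normalization fixes the distribution of each array, so a shift shared by most genes would not be visible.

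Groups were taken from the labels of the samples, with 1 column in each of 12 groups. Differences of log2 signal were taken between columns of a line in 14 comparisons: 8 of a drug over DMSO of the same time, and the rest of ICG-001 over C646 and of DMSO at 96 h over 12 h. The detection limit of a column was taken from the peak of its log2 signal histogram (step 0.01) and the SD of the values below the peak. Calls were made at 1.5-fold. All shares and counts were taken over the whole table of 34687 gene names. No replicate values were used, so no p-value is given, and the number of arrays limits the precision.

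All 9 cyclins were named with their signals. From each other list, the 2 genes with the largest absolute mean log2 ratio over the 4 ICG-001 comparisons and the kinase partners CDK1, CDK2, CDK4 and CDK6 were named, and for CCND1, CCNE2, CCNA2 and CCNB1 the 3 genes of highest Pearson's r. Members and lists were chosen with earlier results of these data known. Promoter windows came from a RefSeq table of GRCh38.p14, which held windows for 6 of the 9 cyclins. Alternatives were thresholds of 1.2-fold and 2-fold, no detection filter, a limit at 5 SD, normexp background correction (offset 16) with quantile normalization in limma 3.58.1 under R 4.3.3, median centring, quantile normalization over all columns, and the DMSO column of the other time. Other steps ran in Python 3.11.15 (pandas 2.3.3, numpy 2.4.6, matplotlib 3.10.9, scipy 1.17.1).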

Additional observations from a re-analysis of the deposited data

Results flagged for a closer look

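Ratios of 1 drug over DMSO were set against each other between cell lines and between time points, and for 3 cyclins every ratio of 1 line or time lay on the opposite side of 0 from every ratio of the other. The differences were not tested, and values near 0 carry no direction. CCNE1 with C646 over DMSO had HCT116 log2 ratios of 0.26 at 12 h and 0.21 at 96 h, whereas those of PANC1 were -0.16 and -0.02. CCNA2 with C646 had 0.14 and 0.17 in HCT116, against -0.26 and -0.23 for PANC1. CCNE2 with ICG-001 over DMSO had -0.42 in HCT116 and -0.47 in PANC1 at 12 h, and 0.93 and 0.04 at 96 h. None of these ratios but the 0.93 reached 1.5-fold.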

How the results depend on the processing

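No paired analysis was possible because each group had 1 column, the mean of its arrays. For the same reason no replicate could be left out. Of 116 ratios of the tested cyclins, 26 were called at 1.5-fold, and all 26 kept their sign and their call without a detection filter, with a limit at 5 SD, after normexp, after median centring and after quantile normalization over all columns.

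Counts of called cyclins, summed over time points, depended on the threshold. At 1.5-fold, HCT116 gave 6 calls with ICG-001 and 1 with C646 over DMSO, 9 with ICG-001 over C646 and 1 between DMSO columns, and PANC1 gave 4, 1, 4 and 0, beside 9.62%, 3.69%, 6.33% and 3.21% of all ratios tested in HCT116 and 5.02%, 5.36%, 4.67% and 1.32% for PANC1. At 1.2-fold HCT116 gave 13, 6, 14 and 4 in that order, and PANC1 gave 12, 6, 10 and 2, beside 33.2%, 21.1%, 27.5% and 22.6% of all ratios in HCT116 and 23.4%, 24%, 23% and 15.4% for PANC1. At 2-fold, HCT116 gave 1, 0, 3 and 1, and PANC1 gave 0, 0, 1 and 0, beside 1.84%, 0.634%, 1.32% and 0.303% of all ratios in HCT116 and 0.857%, 1.45%, 0.812% and 0.176% for PANC1. The 1 PANC1 call is CCND2 over a C646 column under the limit, for which the bound is at least 1.85-fold, below 2-fold. With normexp, which removes background and widens ratios of dim genes, C646 gave 3 calls and the DMSO columns 3 in HCT116, and ICG-001 gave 7 calls and the DMSO columns 1 in PANC1. Quantile normalization over all columns gave 2 calls between the HCT116 DMSO columns. The share of all ratios called was not computed after normexp or after this normalization, so these counts are not read as results about the cyclins.

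With the DMSO column of the other time as control, C646 gave 5 calls in HCT116 and 0 in PANC1. The share of all ratios called with that control was not computed, so these counts are not read either. Of all 66 ratios over DMSO, 20 changed sign, and the move had a median of 0.185 and a largest value of 1.39 on the log2 scale. Of the 12 calls over DMSO, 11 kept their sign and 9 their call. The sign changed for CCNE2 at 96 h of ICG-001 in HCT116, which turned from 0.93 to -0.45, and the call was lost for CCNF at 96 h of ICG-001 (from -0.69 to -0.57) and CCND3 at 12 h of C646 (from 0.67 to 0.55) in PANC1. The late cyclins at 96 h of ICG-001 and CCND1 in HCT116 kept their direction.

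Dim signals limit CCND2, which was under the limit in 10 of 12 columns. Its log2 ratio at 96 h of ICG-001 in PANC1 was 0.97 as deposited and 2.10 after normexp.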
